A study of Oikopleura dioica with 67 samples.

Results

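The step from late organogenesis to the juvenile was described in Oikopleura dioica, a planktonic tunicate that keeps its chordate tail for life. The 3 libraries of 10 hpf (hours post fertilization) were set against the 3 libraries of 8 hpf, which makes 6 of the 67 libraries of the series. All were whole, untreated, wild-type animals of the Japanese laboratory population grown at 20 °C. Per the labels, animals are hatched larvae at 3 hpf, in late organogenesis at 8 hpf and juveniles at 10 hpf. The 6 libraries belong to a staged set of 43 libraries in 15 groups, of which 5 hpf (3 libraries), adult females and adult males (2 libraries each) are also used here. Whole embryos labelled 12 hpf (4 libraries) come from a hemisphere set of 24 libraries whose values were scaled in a separate table. The labels do not say whether libraries of a stage came from separate spawnings, so the spread between them may be technical.

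Larvaceans such as Oikopleura build a tadpole whose tail muscle, notochord and nerve cord remain in use in the adult. The epithelium of the trunk secretes a gelatinous filter house, and cilia and the beating tail move water and food particles through it. A tubular gut with stomach and intestine then digests trapped algae, and the pharyngeal endostyle secretes the mucus that carries food. Around the juvenile stage the tail changes its angle to the trunk, the first house is inflated and feeding starts.

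Levels are the authors' RPKM (reads scaled by unigene length and by library size), and a unigene is an assembled transcript named after the vertebrate gene it resembles. A change is the difference of mean log2(RPKM + 1), 10 hpf minus 8 hpf, and it understates changes of low unigenes. It was tested with limma over all 43 staged libraries, with p-values adjusted by Benjamini and Hochberg over 18704 unigenes and a threshold of 0.05. In whole animals, fewer cells of a type and less RNA per cell cannot be told apart.

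The libraries stood apart in ways that bear on every result. All 3 libraries of 10 hpf and library 21 of 8 hpf were sequenced in lane 5 of run 1, while libraries 8 and 35 of 8 hpf were sequenced in lane 1 of run 2. Lane 5 of run 1 also held the adult libraries, library 20 of 5 hpf and libraries 29 and 41 of unfertilized eggs. Library 21 correlated with the 10 hpf libraries at r = 0.931, 0.961 and 0.939, with library 35 at 0.939 and with library 8 at 0.826 (Pearson's r of log2 values across unigenes, which are not independent). Library 8 had the lowest summed RPKM of the staged set, 739145, against 988221 to 1105122 in the 10 hpf libraries. Reads per library ran from 8514812 to 24290060 at 10 hpf and from 19440598 to 50139230 at 8 hpf, and 34.61% to 38.21% and 30.04% to 34.79% of them aligned to the genome. Most changes are therefore given also against library 21 alone, called the same-lane change, with the spread taken from all groups. In that comparison the single 8 hpf library is assumed to vary like the others. The same-lane changes rest on the stage label of that 1 library, which correlated more with each 10 hpf library than with library 8 of its own stage.

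At 10 hpf 403 unigenes rose and 399 fell relative to 8 hpf, together 4.29% of the 18704 tested (2.15% and 2.13%). By 4-fold or more 58 rose (0.31%) and 38 fell (0.203%). The 3 libraries of 10 hpf did not overlap the 3 of 8 hpf for 295 of the risers and 243 of the fallers, against 14.7% of all unigenes tested. The median change of all unigenes was -0.22, 0.16 as a same-lane change and -0.40 without library 21 of 8 hpf. Without that library 628 of the 18704 unigenes were higher and 1683 lower. List counts and medians are read against these values. Against library 21 alone 845 unigenes were called higher (4.52%) and 271 lower (1.45%), together 5.97%. Of the 403 risers 204 were also called there and 394 kept their direction, and of the 399 fallers 130 were called and 349 kept their direction. With lane as a term of the fit 656 unigenes were higher (3.51%) and 107 lower (0.572%), 4.08% together. In all 3 fits, 180 risers and 51 fallers passed. Among unigenes described below, Eif4ebp2 (limma adjusted p = 0.0753), PDIA3 (0.0955), Chst11 (0.115), UST (0.144) and SLC22A15 (0.244) passed in the same lane and did not pass with the lane term. With the 6 compared libraries fitted alone, limma called 0 unigenes (lowest adjusted p = 0.214), with 735 higher and 908 lower at an unadjusted p under 0.05, against 16.3% of all unigenes at that level in the fit of all 43 libraries. The calls below thus rest on a spread estimated over all 15 groups.

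**Figure D1:**
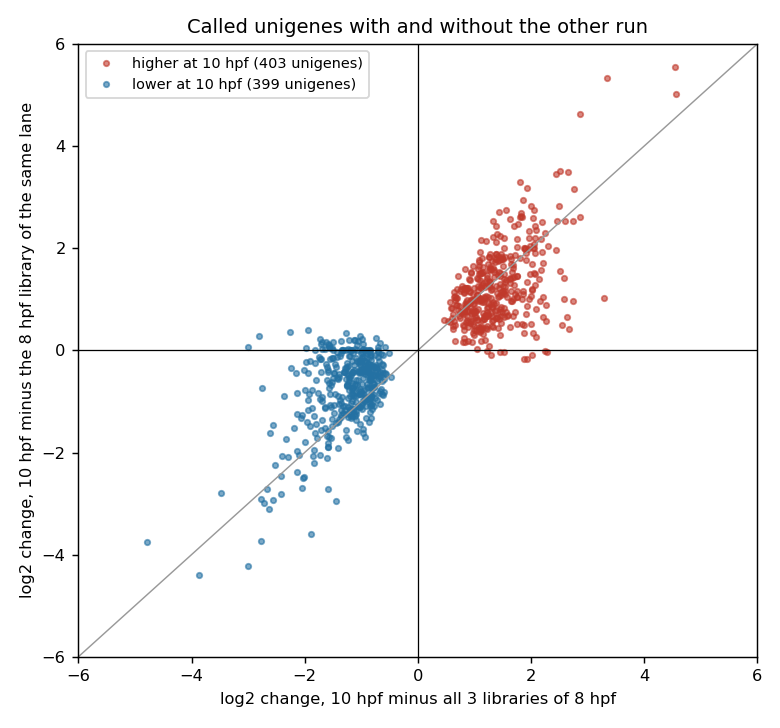
Change of the 802 called unigenes against all 3 libraries of 8 hpf (x axis, log2) and against the 8 hpf library of the same lane (y axis, log2); each point is 1 unigene and the grey line marks equal values. Of the 403 risers 394 lie above 0 on the y axis, and of the 399 fallers 349 lie below it. Both axes share the 10 hpf libraries and library 21.

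Enzymes that break down food rose in 11 unigenes at 10 hpf. Of 177 digestive enzyme unigenes tested, 11 rose (6.21%, against 2.15% of all unigenes), 3 fell (1.69%, against 2.13%) and 163 did not pass, with a median change of 0.08. The same-lane median was 0.42, against 0.16 of all unigenes. With the lane term 19 were higher and 0 lower, against 656 and 107 of all 18704 unigenes. Without library 21 of 8 hpf 10 were higher and 20 lower, against 628 and 1683 of all. The median was then -0.15, against -0.40 of all unigenes. The summed level of the list ran from 15604 to 19675 RPKM at 10 hpf, against 8397 to 13973 RPKM at 8 hpf.

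Chitinases, which cleave the chitin of prey and cell walls, gave the clearest member. CHIT1 had 57.8, 82.2 and 68.2 RPKM at 10 hpf, against 13.9, 11 and 5.30 RPKM at 8 hpf. The groups stood well apart, and all 3 libraries of 5 hpf were listed at 0. The change was 2.74 (SE 0.21, limma adjusted p = 8.29e-11) and the same-lane change 2.54 (adjusted p = 1.05e-09). Chia, an acidic chitinase, had 214, 63.7 and 77.9 RPKM at 10 hpf, against 12.7, 16.9 and 19.3 RPKM at 8 hpf. It rose by 2.60 (SE 0.41, limma adjusted p = 0.000111), with a same-lane change of 2.52 (adjusted p = 0.00673). Over the family, 3 of 8 chitinase unigenes rose (37.5%, against 2.15% of all unigenes) and 0 fell. The most abundant one, Chit1, averaged 504 ± 96.7 RPKM at 10 hpf and 287 ± 207 RPKM at 8 hpf (SD, n = 3 each) and did not pass (limma adjusted p = 0.379).

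Among the proteases PRSS2, named after a pancreatic trypsin, had 35.8, 34.2 and 22 RPKM at 10 hpf, against 7.08, 14.8 and 6.39 RPKM at 8 hpf. It rose by 1.66 (SE 0.33, limma adjusted p = 0.00158), but its same-lane change of 0.97 did not pass (adjusted p = 0.238). Mep1b, a meprin of the brush border, rose by 1.06 (SE 0.22, limma adjusted p = 0.0027) and passed in the same lane (0.80, adjusted p = 0.00296). The abundant trypsin and chymotrypsin unigenes were already strongly present at 8 hpf and did not pass. CTRB2, for instance, averaged 2062 ± 159 RPKM at 10 hpf and 1340 ± 544 RPKM at 8 hpf (SD, n = 3 each, limma adjusted p = 0.605). Of the whole trypsin and chymotrypsin family 4 of 78 unigenes rose (5.13%) and 1 fell (1.28%), against 2.15% and 2.13% of all unigenes.

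Membrane-bound serine proteases also appeared among the risers. Tmprss6, named after a liver protease that trims iron regulators in mammals, had 241, 164 and 74.4 RPKM at 10 hpf, against 14.2, 53.0 and 15.8 RPKM at 8 hpf. The change was 2.59 (SE 0.43, limma adjusted p = 0.00021). The high 8 hpf library was library 21, and the same-lane change was 1.42 and did not pass (adjusted p = 0.159). In this family 5 of 51 unigenes rose (9.8%, against 2.15% of all unigenes) and 0 fell. The same-lane median was 0.625, against 0.16 of all unigenes. TMPRSS9, chosen after its values were seen, had 165, 96.5 and 96.7 RPKM at 10 hpf, against 57.4, 17.1 and 32.7 RPKM at 8 hpf, and its same-lane change was 2.68 (limma adjusted p = 5.07e-07).

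The 15 largest increases also held hydrolases of lipids and esters. Pla2g2d, a secreted phospholipase A2, had 10.3, 19.8 and 7.79 RPKM at 10 hpf, against 0.889, 3.80 and 1.61 RPKM at 8 hpf. The groups did not overlap, and the change was 2.15 (SE 0.29, limma adjusted p = 1.23e-05; same-lane 1.41, adjusted p = 0.0153). Of 41 phospholipase A2 unigenes 4 rose (9.76%, against 2.15% of all unigenes) and 0 fell. Ces2e, a carboxylesterase of gut and liver in mammals, had 43, 55.4 and 61.8 RPKM at 10 hpf, against 13.9, 12.5 and 14.2 RPKM at 8 hpf. Its replicates were tight, and the change of 1.89 (SE 0.22, limma adjusted p = 7.72e-07) was 2.00 in the same lane (adjusted p = 3.12e-06). Bche, named after butyrylcholinesterase, which splits choline esters, had 41.7, 443 and 416 RPKM at 10 hpf, against 14.1, 31.4 and 40.2 RPKM at 8 hpf. Library 22 lay close to the 8 hpf range, and the change was 2.87 (SE 0.50, limma adjusted p = 0.000394; same-lane 2.62, adjusted p = 0.0204).

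**Figure D2:**
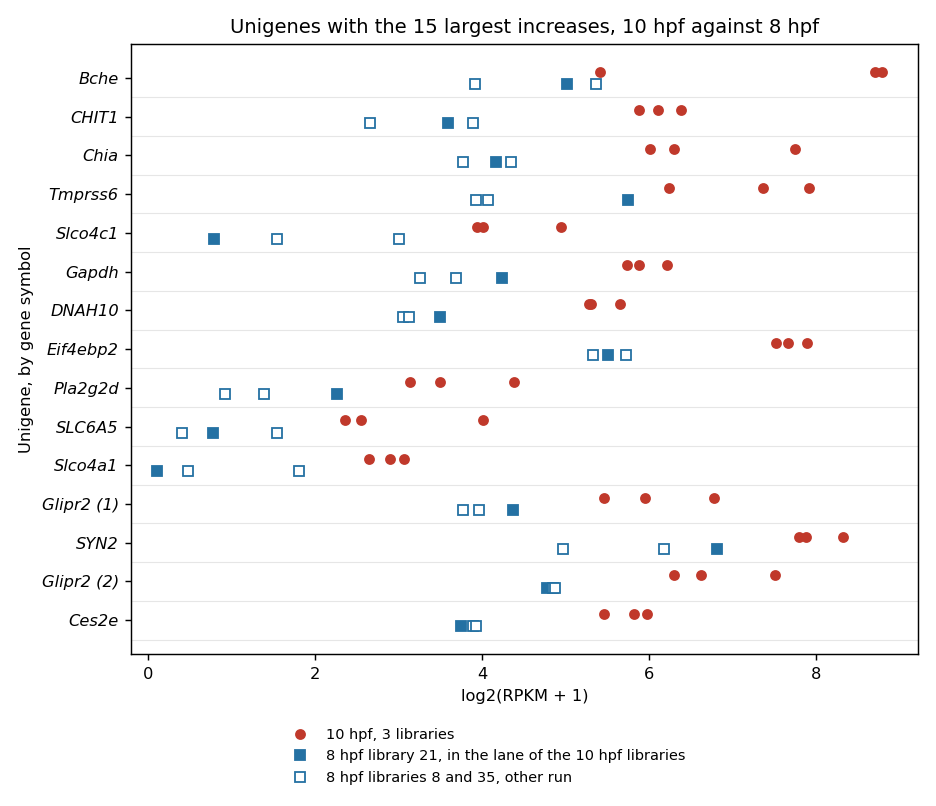
Level of the 15 named unigenes with the largest increases, on a log2(RPKM + 1) axis, with 1 row for each unigene, circles for the 3 libraries of 10 hpf and squares for the 3 of 8 hpf. Circles and squares do not overlap in any row, by the choice of the unigenes. In the Tmprss6, Gapdh, DNAH10, Pla2g2d, SYN2 and first Glipr2 rows the filled square of library 21 is the one nearest to the circles. In the remaining rows an open square is nearest, and in the CHIT1 and Chia rows the filled square lies among the open squares.

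Uptake and transport genes were mixed. Of 83 unigenes for absorption and lipid transport 8 rose (9.64%, against 2.15% of all unigenes) and 0 fell. All 8 carried the name of cubilin, a mammalian receptor with many CUB domains that takes up vitamin B12 in the intestine. Of the 25 cubilin unigenes the other 17 did not pass. The libraries did not overlap for 2 of the 8 risers, against 295 of all 403 risers. Those 2 averaged 1.97 and 2.38 RPKM at 10 hpf, against 0.329 and 0.752 RPKM at 8 hpf. The largest change, chosen after its values were seen, was in a Cubn unigene with 882, 294 and 95.3 RPKM at 10 hpf, against 40.4, 156 and 33.6 RPKM at 8 hpf. Its groups overlapped, library 21 was the high 8 hpf library, and the same-lane change of 0.90 did not pass (limma adjusted p = 0.584). In the same lane 4 cubilin unigenes were higher and 2 lower.

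Of 353 solute carrier unigenes 8 rose and 8 fell, with a median change of -0.12. These shares, 2.27% in each direction, were near the 2.15% and 2.13% of all unigenes. The risers were led by organic anion transporters. Slco4c1 had 29.8, 15.1 and 14.4 RPKM at 10 hpf, against 7.02, 0.726 and 1.91 RPKM at 8 hpf, and rose by 2.52 (SE 0.29, limma adjusted p = 8.52e-07; same-lane 3.51, adjusted p = 6.22e-11). Slco4a1 had 6.42, 5.23 and 7.34 RPKM at 10 hpf, against 2.51, 0.0802 and 0.395 RPKM at 8 hpf, a change of 2.06 (SE 0.22, limma adjusted p = 8.71e-08; same-lane 2.75, adjusted p = 3.74e-14). For both, library 8 of the other run was the 8 hpf library nearest to 10 hpf. Slc25a3, the mitochondrial phosphate carrier, rose by 1.01 (SE 0.20, limma adjusted p = 0.00193; same-lane 1.0, adjusted p = 0.0148). SLC22A15, an organic cation transporter of the plasma membrane, gave 3 fallers among its 4 unigenes (75%, against 2.13% of all unigenes). These 3 fallers were chosen after their values were seen. One of them had 1.18, 0.842 and 1.13 RPKM at 10 hpf, against 5.03, 4.37 and 3.91 RPKM at 8 hpf (change -1.41, limma adjusted p = 0.00466; same-lane -1.39, adjusted p = 2.97e-09).

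Of 96 unigenes on the lysosome list 5 rose (5.21%) and 1 fell (1.04%), against 2.15% and 2.13% of all unigenes. All 6 were arylsulfatases, enzymes that remove sulfate from glycans and steroids. Membership rests on the gene symbol and does not show that an enzyme acts in the lysosome. ARSE had 144, 93.0 and 49.5 RPKM at 10 hpf, against 20.5, 40.3 and 20.4 RPKM at 8 hpf, and rose by 1.73 (SE 0.33, limma adjusted p = 0.00124). Its same-lane change of 1.09 did not pass (adjusted p = 0.206). ARSF had 71.0, 64.8 and 57.4 RPKM at 10 hpf, against 26.8, 32.7 and 27.1 RPKM at 8 hpf. It rose by 1.13 (SE 0.25, limma adjusted p = 0.00545; same-lane 0.95, adjusted p = 0.105). The faller ARSB was listed at 0 in 2 libraries of 10 hpf, and its same-lane change was -0.15 (limma adjusted p = 0.865).

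Of 290 extracellular matrix unigenes 12 rose (4.14%), 6 fell (2.07%) and 272 did not pass, with a median of -0.35. The same-lane median was 0.32, against 0.16 of all unigenes. With the lane term 29 were higher and 3 lower, against 656 and 107 of all 18704 unigenes. Without library 21 of 8 hpf 14 were higher and 53 lower, with a median of -0.61, against -0.40 of all unigenes. The risers were mostly tectorin and hemicentin unigenes. Tectorins are zona pellucida proteins of gel-like matrices, known from the membrane that covers hair cells in the vertebrate inner ear. Tecta had 67.8, 57.2 and 66.4 RPKM at 10 hpf, against 25, 17.8 and 23.5 RPKM at 8 hpf. The groups stood well apart, with a change of 1.50 (SE 0.26, limma adjusted p = 0.000285; same-lane 1.78, adjusted p = 0.000262). Of 15 tectorin unigenes 5 rose (33.3%) and 1 fell (6.67%), against 2.15% and 2.13% of all unigenes. The most abundant riser among them, chosen after its values were seen, was a further Tecta unigene with 1772, 1489 and 921 RPKM at 10 hpf, against 406, 653 and 481 RPKM at 8 hpf (limma adjusted p = 0.0198; same-lane adjusted p = 0.282).

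HMCN1, a hemicentin that anchors epithelia to the basement membrane in other animals, had 17.1, 11.7 and 32.5 RPKM at 10 hpf, against 7.61, 7.36 and 6.41 RPKM at 8 hpf. It rose by 1.28 (SE 0.22, limma adjusted p = 0.000428; same-lane 1.24, adjusted p = 0.00351). Of 54 hemicentin unigenes 4 rose (7.41%) and 2 fell (3.7%), against 2.15% and 2.13% of all unigenes. Tll1, a tolloid protease that processes matrix proteins, had 15.6, 21.9 and 31.3 RPKM at 10 hpf, against 6.58, 7.55 and 10.4 RPKM at 8 hpf (change 1.35, SE 0.25, limma adjusted p = 0.00091; same-lane 1.43, adjusted p = 0.00758). LOXHD1, a protein of hair cell stereocilia in mammals, rose by 1.14 (SE 0.19, limma adjusted p = 0.000179; same-lane 1.28, adjusted p = 0.00041). Both Glipr2 unigenes among the large risers are isoforms of 1 assembled gene. The lower-numbered isoform had 109, 60.7 and 42.9 RPKM at 10 hpf, against 14.6, 19.7 and 12.6 RPKM at 8 hpf (change 2.03, SE 0.40, limma adjusted p = 0.00173), and its same-lane change of 1.69 did not pass (adjusted p = 0.0522). The other rose by 1.98 (SE 0.34, limma adjusted p = 0.000382; same-lane 2.03, adjusted p = 0.00673), and reads may be split between them.

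Of 231 unigenes for enzymes that build and sulfate glycosaminoglycans 1 rose and 5 fell (2.16%, against 2.13% of all unigenes), with a median change of -0.53. The same-lane median was -0.01, against 0.16 of all unigenes. With the lane term 12 were higher and 0 lower, against 656 and 107 of all 18704 unigenes. Without library 21 of 8 hpf 3 were higher and 31 lower, against 628 and 1683 of all. Chst11, a chondroitin sulfotransferase, had 3.62, 1.1 and 2.64 RPKM at 10 hpf, against 9.0, 6.10 and 11.1 RPKM at 8 hpf. It fell by 1.53 on the log2 scale (SE 0.29, limma adjusted p = 0.000989; same-lane -1.11, adjusted p = 0.0138). UST, which adds sulfate to uronic acid, had 0.709, 1.39 and 1.45 RPKM at 10 hpf, against 4.30, 4.04 and 4.80 RPKM at 8 hpf (change -1.32, SE 0.26, limma adjusted p = 0.00129; same-lane -1.23, adjusted p = 4.61e-07). HS3ST4 and Gal3st1 fell by less and did not pass in the same lane (limma adjusted p = 0.137 and 0.217).

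**Figure D3:**
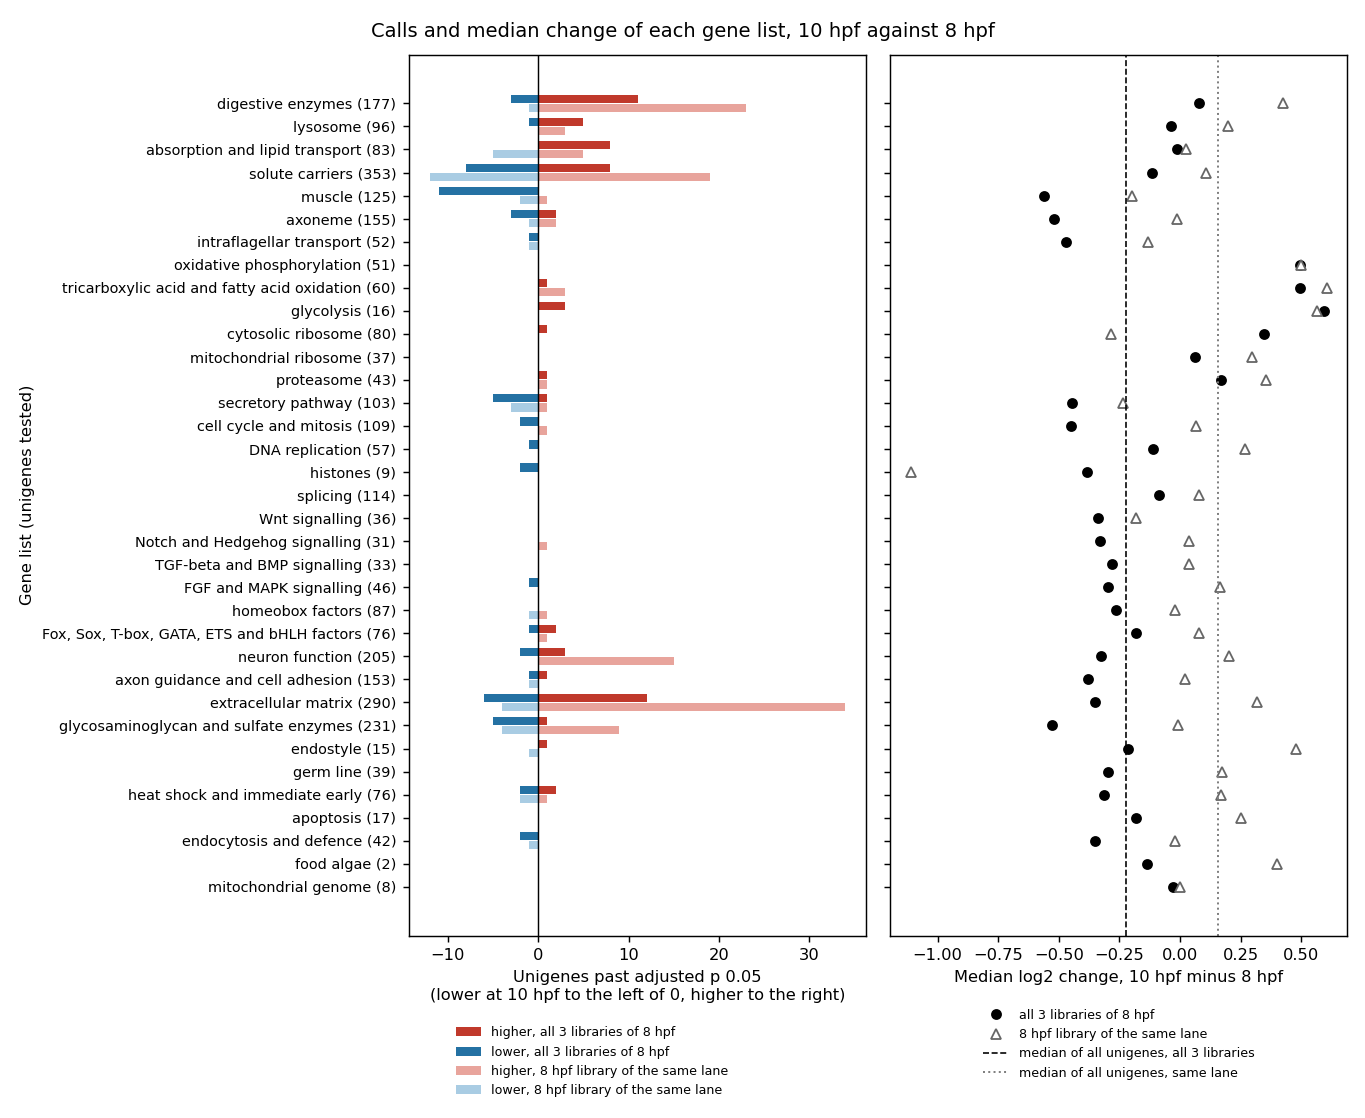
Left, unigenes of each gene list called higher (right of 0) or lower (left of 0) at 10 hpf, against all 3 libraries of 8 hpf (dark bars) and against the 8 hpf library of the same lane (light bars). Right, the median log2 change of each list in both comparisons, with the medians of all unigenes as vertical lines at -0.22 and 0.16. Muscle has 11 lower calls in dark and 2 in light, and the matrix list has 12 and 34 higher calls.

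The muscle calls were falls of myosin heavy chains, the motor proteins of the sarcomere. Of 125 muscle unigenes 0 rose and 11 fell (8.8%, against 2.13% of all unigenes), and all 11 were among the 39 myosin heavy chain unigenes. Of 17 troponin, 7 tropomyosin, 13 myosin light chain and 3 muscle actin unigenes 0 were called by limma in either direction, with 3 troponins lower and 1 troponin and 1 light chain higher at an unadjusted p under 0.05. MYH3 had 3.63, 8.99 and 16.3 RPKM at 10 hpf, against 237, 63.4 and 71.4 RPKM at 8 hpf. Library 8 was far above the other 8 hpf libraries, and all of them lay above the 10 hpf range. MYH3 fell by 3.48 on the log2 scale (SE 0.48, limma adjusted p = 1.54e-05), with a same-lane change of -2.80 (adjusted p = 0.00257).

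Myh8 had 8.68, 17.9 and 28.6 RPKM at 10 hpf, against 177, 57.3 and 65.5 RPKM at 8 hpf (change -2.33, SE 0.43, limma adjusted p = 0.000801). Its same-lane change of -1.73 just missed the threshold (adjusted p = 0.0645). The MYH6 and Myh1 unigenes without overlap fell by 1.95 and 2.04 on the log2 scale, and their same-lane changes of -1.41 and -1.27 did not pass (limma adjusted p = 0.139 and 0.48). Over the whole muscle list 2 unigenes were lower without library 8, against 155 of all 18704. Without library 21 they were 21, against 1683 of all. The same-lane median of the list was -0.20, against 0.16 of all unigenes. The list summed to 18570 to 31442 RPKM at 10 hpf, against 25243 to 33627 RPKM at 8 hpf. Abundant unigenes of the sarcomere did not pass. Acta1, the main actin of the thin filament, averaged 2522 ± 871 RPKM at 10 hpf and 2744 ± 1020 RPKM at 8 hpf (SD, n = 3 each, limma adjusted p = 0.918). A regulatory light chain, Myl2, averaged 2288 ± 893 RPKM at 10 hpf and 2069 ± 1188 RPKM at 8 hpf (SD, n = 3 each, limma adjusted p = 0.849).

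**Figure D4:**
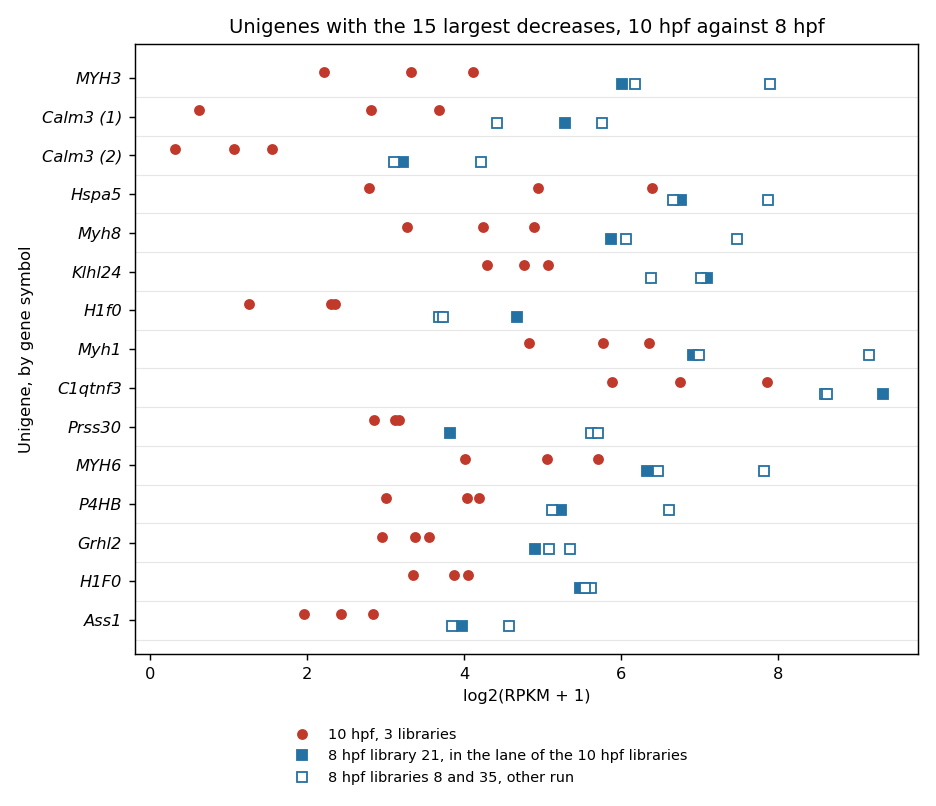
Level of the 15 named unigenes with the largest decreases, on a log2(RPKM + 1) axis, with 1 row for each unigene, circles for the 3 libraries of 10 hpf and squares for the 3 of 8 hpf. Circles and squares do not overlap in any row, by the choice of the unigenes. In the MYH3, Myh8, Myh1 and MYH6 rows 1 open square, library 8, lies far to the right of the other squares.

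Proteins of the endoplasmic reticulum that fold secreted proteins gave more fallers than risers. Of 103 secretory pathway unigenes 1 rose (0.971%) and 5 fell (4.85%), against 2.15% and 2.13% of all unigenes. With the lane term 0 were higher and 0 lower, against 656 and 107 of all 18704 unigenes. The median change was -0.45 and the same-lane median -0.24, against -0.22 and 0.16 of all unigenes. Hspa5, the chaperone BiP of the endoplasmic reticulum, had 5.87, 29.5 and 83.2 RPKM at 10 hpf, against 99.7, 107 and 233 RPKM at 8 hpf. The 10 hpf libraries differed widely among themselves, and the change was -2.39 (SE 0.50, limma adjusted p = 0.00246; same-lane -2.06, adjusted p = 0.0573). P4HB, a disulfide isomerase and subunit of the collagen prolyl hydroxylase, had 7.01, 15.3 and 17.1 RPKM at 10 hpf, against 96.7, 36.5 and 33.7 RPKM at 8 hpf. It fell by 1.91 on the log2 scale (SE 0.55, limma adjusted p = 0.0366), but its same-lane change of -1.49 did not pass (adjusted p = 0.411). PDIA3, a disulfide isomerase for glycoproteins, fell in 3 unigenes and was called lower in all 3 in the same lane. One of these had 5.95, 5.30 and 3.87 RPKM at 10 hpf, against 14.7, 13.7 and 11.2 RPKM at 8 hpf (change -1.24, SE 0.26, limma adjusted p = 0.00275; same-lane -1.30, adjusted p = 0.00458). The riser of the list was Dnajc10, a co-chaperone of the same compartment (change 1.59, limma adjusted p = 0.0194; same-lane 0.68, adjusted p = 0.779).

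Calmodulin, the calcium sensor of many kinases and channels, split by unigene. Of 17 unigenes 1 rose (5.88%) and 3 fell (17.6%), against 2.15% and 2.13% of all unigenes. The larger faller, Calm3, had 0.535, 11.7 and 6.02 RPKM at 10 hpf, against 20.3, 37.9 and 52.7 RPKM at 8 hpf (change -2.78, SE 0.50, limma adjusted p = 0.000605; same-lane -2.91, adjusted p = 0.0105). At 5 hpf it averaged 122 ± 14.8 RPKM (SD, n = 3). A further Calm3 unigene fell by 2.53 on the log2 scale (limma adjusted p = 0.0495), close to the threshold, and did not pass in the same lane (adjusted p = 0.356). The rising Calm3 unigene, chosen after its values were seen, had 12.8, 7.56 and 5.12 RPKM at 10 hpf, against 3.10, 3.53 and 2.71 RPKM at 8 hpf (limma adjusted p = 0.000446; same-lane 0.99, adjusted p = 0.0128).

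Of 3 linker histone unigenes tested 2 fell at 10 hpf (66.7%, against 2.13% of all unigenes). H1f0, a linker histone linked to differentiated cells in mammals, had 1.39, 3.95 and 4.12 RPKM at 10 hpf, against 11.8, 24.6 and 12.3 RPKM at 8 hpf. At 5 hpf it averaged 477 ± 103 RPKM (SD, n = 3). It fell by 2.05 on the log2 scale (SE 0.59, limma adjusted p = 0.0372; same-lane -2.70, adjusted p = 0.064). A further unigene, H1F0, had 15.5, 9.15 and 13.7 RPKM at 10 hpf, against 48.1, 43.3 and 45.4 RPKM at 8 hpf (change -1.79, SE 0.37, limma adjusted p = 0.00228; same-lane -1.72, adjusted p = 0.0522). These were the 2 fallers of 9 histone unigenes (22.2%, against 2.13% of all unigenes), and 0 rose. The other tested linker histone unigene averaged 299 ± 67.4 RPKM at 10 hpf and 251 ± 43.9 RPKM at 8 hpf (SD, n = 3 each) and did not pass (H1F0, limma adjusted p = 0.82).

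Of 109 cell cycle unigenes 0 rose and 2 fell (1.83%, against 2.13% of all unigenes). KIF23, a kinesin of the dividing cell's midbody, had 2.23, 2.83 and 3.93 RPKM at 10 hpf, against 9.55, 7.44 and 8.03 RPKM at 8 hpf (change -1.24, limma adjusted p = 0.0185). At 5 hpf it averaged 80.4 ± 31.9 RPKM (SD, n = 3). Cdc25a, a phosphatase that drives entry into division, fell by 1.16 on the log2 scale (limma adjusted p = 0.042). Neither passed in the same lane (adjusted p = 0.167 and 0.309), where 1 unigene of the list was higher and 0 lower. Of 57 DNA replication unigenes 0 rose and 1 fell (1.75%, against 2.13% of all unigenes).

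Of 155 axoneme unigenes, which build motile cilia, 2 rose (1.29%) and 3 fell (1.94%), against 2.15% and 2.13% of all unigenes. The median was -0.52 and the same-lane median -0.01, against -0.22 and 0.16 of all unigenes. With the lane term 3 were higher and 0 lower, against 656 and 107 of all 18704 unigenes. Without library 21 of 8 hpf 2 were higher and 28 lower, against 628 and 1683 of all. After quantile normalization 3 were higher and 19 lower, against 715 and 464 of all. DNAH10, a heavy chain of the inner dynein arm, had 38.6, 49.2 and 37.8 RPKM at 10 hpf, against 7.28, 10.3 and 7.75 RPKM at 8 hpf. The groups stood far apart, and the change was 2.19 (SE 0.29, limma adjusted p = 6.43e-06; same-lane 1.92, adjusted p = 0.00151). DNAH3, also an inner arm heavy chain, was lower, with 4.39, 5.48 and 5.49 RPKM at 10 hpf, against 31.7, 9.95 and 14.7 RPKM at 8 hpf. It fell by 1.55 on the log2 scale (SE 0.39, limma adjusted p = 0.0147; same-lane -0.84, adjusted p = 0.0346). It did not pass with the lane term (change -0.37, limma adjusted p = 0.724) or without library 8 of 8 hpf (adjusted p = 0.161). CFAP46, of the central apparatus, fell by 0.78 on the log2 scale (limma adjusted p = 0.0219) and did not pass in the same lane (adjusted p = 0.074). Of 39 dynein heavy chain unigenes 2 rose and 2 fell (5.13% each, against 2.15% and 2.13% of all unigenes). Of 52 intraflagellar transport unigenes 0 rose and 1 fell (1.92%, against 2.13% of all unigenes).

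Of 205 neuronal unigenes 3 rose (1.46%) and 2 fell (0.976%), against 2.15% and 2.13% of all unigenes. The median change was -0.33 and the same-lane median 0.20, against -0.22 and 0.16 of all unigenes. With the lane term 6 were higher and 0 lower, against 656 and 107 of all 18704 unigenes. Without library 21 of 8 hpf 3 were higher and 29 lower, against 628 and 1683 of all, so the direction of the list depended on the setting. SLC6A5, named after the transporter that loads glycine into inhibitory nerve endings, had 15.1, 4.13 and 4.87 RPKM at 10 hpf, against 1.92, 0.709 and 0.326 RPKM at 8 hpf. It rose by 2.06 (SE 0.25, limma adjusted p = 2.15e-06; same-lane 2.20, adjusted p = 2.14e-05). SYN2, a synapsin that tethers synaptic vesicles, had 221, 319 and 235 RPKM at 10 hpf, against 30.2, 112 and 71.5 RPKM at 8 hpf. It rose by 2.01 (SE 0.42, limma adjusted p = 0.0027), but its same-lane change of 1.18 did not pass (adjusted p = 0.196). Both fallers, chosen after their values were seen, were glycine receptor subunits at low levels. GLRA2 had 0, 0.597 and 3.29 RPKM at 10 hpf, against 5.36, 2.59 and 3.87 RPKM at 8 hpf (limma adjusted p = 0.00163; same-lane adjusted p = 0.146). The vesicle protein Vamp2 averaged 168 RPKM at 10 hpf and 159 RPKM at 8 hpf (limma adjusted p = 0.902).

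Energy metabolism lists had medians above that of all unigenes. The median change was 0.50 over 51 oxidative phosphorylation unigenes, 0.49 over 60 of the tricarboxylic acid cycle and fatty acid oxidation, and 0.59 over 16 glycolytic ones. As same-lane changes the medians were 0.50, 0.61 and 0.56. Of the oxidative phosphorylation list limma called 0, with 3 higher and 0 lower at an unadjusted p under 0.05. In glycolysis 3 of 16 rose (18.8%, against 2.15% of all unigenes) and 0 fell, and with the lane term 0 passed. Gapdh, which makes the first reduced cofactor of the pathway, had 73.1, 57.9 and 52.3 RPKM at 10 hpf, against 11.9, 17.9 and 8.52 RPKM at 8 hpf. It rose by 2.21 (SE 0.53, limma adjusted p = 0.00961; same-lane 1.70, adjusted p = 0.239). TPI1, the triose isomerase, and LDHC, a lactate dehydrogenase, rose by 1.42 and 0.62 (limma adjusted p = 0.0338 and 0.0374), without passing in the same lane (adjusted p = 0.151 and 0.0797). Mdh1, the cytosolic malate dehydrogenase, was the riser of its list (change 1.30, limma adjusted p = 0.019; same-lane 0.90, adjusted p = 0.387). Eif4ebp2, a repressor of cap-dependent translation, had 203, 236 and 182 RPKM at 10 hpf, against 39.4, 44.5 and 51.7 RPKM at 8 hpf (change 2.17, SE 0.47, limma adjusted p = 0.00407; same-lane 2.19, adjusted p = 0.0446).

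Ribosomal protein genes had no stable direction. The median over 80 cytosolic ribosome unigenes was 0.35, but -0.29 in the same lane and -0.09 after quantile normalization. One of them rose (RPL38, chosen after its values were seen, listed at 0 in the 3 libraries of 8 hpf) and 0 fell. Of 37 mitochondrial ribosome unigenes limma called 0, also at an unadjusted p under 0.05. Of 43 proteasome unigenes 1 rose, PSMB3, a subunit of the proteolytic core (change 0.85, limma adjusted p = 0.0286; same-lane 0.87, adjusted p = 0.0863). Of 114 splicing unigenes limma called 0, with 1 higher and 3 lower at an unadjusted p under 0.05.

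Developmental regulators were read against the 4.29% of all unigenes called. Of 87 homeobox unigenes 0 were called by limma, and likewise 0 of 36 Wnt, 0 of 31 Notch and Hedgehog and 0 of 33 TGF-beta and BMP signalling unigenes. Their medians ran from -0.34 to -0.26, near that of all unigenes. At an unadjusted p under 0.05, 6 homeobox, 2 Wnt, 3 Notch and Hedgehog and 1 TGF-beta unigenes were lower, and 3 Notch and Hedgehog unigenes were higher. In the same lane 1 homeobox unigene was higher and 1 lower, and 1 Notch and Hedgehog unigene was higher. Pax6, a regulator of eye and brain, averaged 2.30 RPKM at 10 hpf and 5.30 RPKM at 8 hpf (limma adjusted p = 0.0733). Dll1, a Notch ligand, averaged 463 RPKM at 10 hpf and 272 RPKM at 8 hpf (limma adjusted p = 0.18). Of 46 FGF and MAPK unigenes 0 rose and 1 fell: FGFR4, an FGF receptor, had 0.0941, 0.160 and 0.128 RPKM at 10 hpf, against 1.30, 0.455 and 0.897 RPKM at 8 hpf (limma adjusted p = 0.0115; same-lane adjusted p = 0.0596).

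Of 76 unigenes of other transcription factor families 2 rose (2.63%) and 1 fell (1.32%), against 2.15% and 2.13% of all unigenes. HAND1, a bHLH factor of heart and mesoderm in vertebrates, had 1.04, 1.06 and 3.30 RPKM at 10 hpf, against 3.91, 5.19 and 4.75 RPKM at 8 hpf (change -1.09, limma adjusted p = 0.0231; same-lane -1.24, adjusted p = 0.0779). The risers, chosen after their values were seen, were ETS1 (limma adjusted p = 0.0242; same-lane 0.29, adjusted p = 1.0) and FOXH1 (limma adjusted p = 0.0372; same-lane adjusted p = 0.00932), and the libraries of both stages overlapped for each. Grhl2, a grainyhead factor that maintains epithelia, had 6.74, 9.36 and 10.8 RPKM at 10 hpf, against 39.8, 28.9 and 32.9 RPKM at 8 hpf. It fell by 1.82 on the log2 scale (SE 0.48, limma adjusted p = 0.0209; same-lane -1.61, adjusted p = 0.00119). With the lane term its change was -0.55 and did not pass (limma adjusted p = 0.699). Klhl24, an adaptor that marks intermediate filament proteins for degradation in skin, had 18.5, 32.5 and 26.1 RPKM at 10 hpf, against 82.5, 136 and 129 RPKM at 8 hpf (change -2.13, SE 0.40, limma adjusted p = 0.000963; same-lane -2.39, adjusted p = 0.000506).

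Further large fallers came from several functions. C1qtnf3, a secreted protein with a complement C1q domain, had 231, 106 and 58.0 RPKM at 10 hpf, against 386, 644 and 394 RPKM at 8 hpf (change -2.02, SE 0.39, limma adjusted p = 0.00109; same-lane -2.50, adjusted p = 0.00239). It was 1 of 2 fallers among 42 endocytosis and defence unigenes (4.76%, against 2.13% of all unigenes), of which 0 rose. Ass1, the argininosuccinate synthase of arginine synthesis, had 4.40, 6.13 and 2.89 RPKM at 10 hpf, against 13.3, 14.7 and 22.8 RPKM at 8 hpf (change -1.72, SE 0.28, limma adjusted p = 0.000194; same-lane -1.56, adjusted p = 3.12e-06). Prss30, a serine protease, fell by 2.00 on the log2 scale (limma adjusted p = 0.0201), but library 21 held 13.1 RPKM, against 48.1 and 50.9 RPKM in the other 8 hpf libraries, and the same-lane change was -0.77 (adjusted p = 0.699). Among 153 adhesion unigenes 1 rose and 1 fell (0.654% each, against 2.15% and 2.13% of all unigenes). The faller Ncam2, a neural adhesion molecule, had 6.14, 7.71 and 6.61 RPKM at 10 hpf, against 21.3, 12.1 and 16.5 RPKM at 8 hpf (change -1.14, limma adjusted p = 0.0121; same-lane -0.74, adjusted p = 0.345).

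Most changes fell on unigenes without a name. Of the risers 279 of 403 and of the fallers 263 of 399 had no gene symbol, against 9996 named unigenes of the 18704 tested. The largest increase was in OD_K29COV8_DN413_c0_g1_i1, with 69.0, 81.2 and 50.9 RPKM at 10 hpf, against 4.93, 1.07 and 0.819 RPKM at 8 hpf (change 4.57, SE 0.25, limma adjusted p = 5.71e-15; same-lane 5.01, adjusted p = 5.77e-19). OD_K21COV15_DN9443_c0_g2_i1 had 498, 398 and 332 RPKM at 10 hpf, against 24.1, 7.70 and 23 RPKM at 8 hpf (change 4.54, SE 0.41, limma adjusted p = 2.19e-09; same-lane 5.54, adjusted p = 1.91e-08). Among fallers OD_K29COV6_DN14408_c0_g4_i3 had 2.93, 6.77 and 31.3 RPKM at 10 hpf, against 156, 132 and 1003 RPKM at 8 hpf (change -4.79, SE 0.74, limma adjusted p = 8.52e-05; same-lane -3.74, adjusted p = 0.0104). OD_K21COV4_DN13138_c0_g1_i1 fell by 3.01 on the log2 scale (SE 0.56, limma adjusted p = 0.000908; same-lane -4.22, adjusted p = 0.000171).

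Lists of genes that could mark RNA of another source or state were also counted. Of 76 heat shock and immediate early unigenes 2 rose and 2 fell (2.63% each, against 2.15% and 2.13% of all unigenes). The list summed to 1942 to 2472 RPKM at 10 hpf, against 2680 to 4654 RPKM at 8 hpf, without overlap. HSP90AA1, chosen after its values were seen, had 106, 120 and 171 RPKM at 10 hpf, against 131, 455 and 1019 RPKM at 8 hpf (limma adjusted p = 0.0493). Of 39 germ line unigenes limma called 0 (1 higher and 1 lower at an unadjusted p under 0.05), and they summed to 559.5 to 697 RPKM at 10 hpf, against 512 to 914 RPKM at 8 hpf. Of 17 apoptosis unigenes limma called 0, also at an unadjusted p under 0.05. The 8 unigenes named after mitochondrial genome transcripts summed to at most 0.560 RPKM at 10 hpf and 0.474 RPKM at 8 hpf, too low to show a movement. The patterns for algal photosynthesis genes matched 2 unigenes, PSAP and CAB39, which are animal genes, so algal RNA was not measured. DNAJC24, a co-chaperone, was 1 of the 2 risers of the heat shock list, with 16.4, 21.6 and 17.1 RPKM at 10 hpf, against 1.82, 7.93 and 4.92 RPKM at 8 hpf (limma adjusted p = 0.0199; same-lane adjusted p = 0.52). Of 15 endostyle unigenes 1 rose, Tg, the thyroid hormone precursor in vertebrates (chosen after its values were seen, limma adjusted p = 0.0347; same-lane adjusted p = 0.167).

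Between 5 and 8 hpf limma called 5562 unigenes (29.7%), and between 5 and 10 hpf 7027 (37.6%), against 4.29% between 8 and 10 hpf. The median level of the 403 risers was 0.956 RPKM at 5 hpf, 5.78 RPKM at 8 hpf and 16.9 RPKM at 10 hpf. For 386 of them 10 hpf held the highest of the stage means before adulthood. The 399 fallers had a median of 1.68 RPKM at 5 hpf, 3.86 RPKM at 8 hpf and 0.822 RPKM at 10 hpf, and for 290 of them 8 hpf held the highest stage mean and for 85 it was 5 hpf. Egg means reached 1 RPKM for 5.21% of the risers, 3.26% of the fallers and 43.3% of all unigenes tested. These positions partly follow from how risers and fallers were called.

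**Figure D5:**
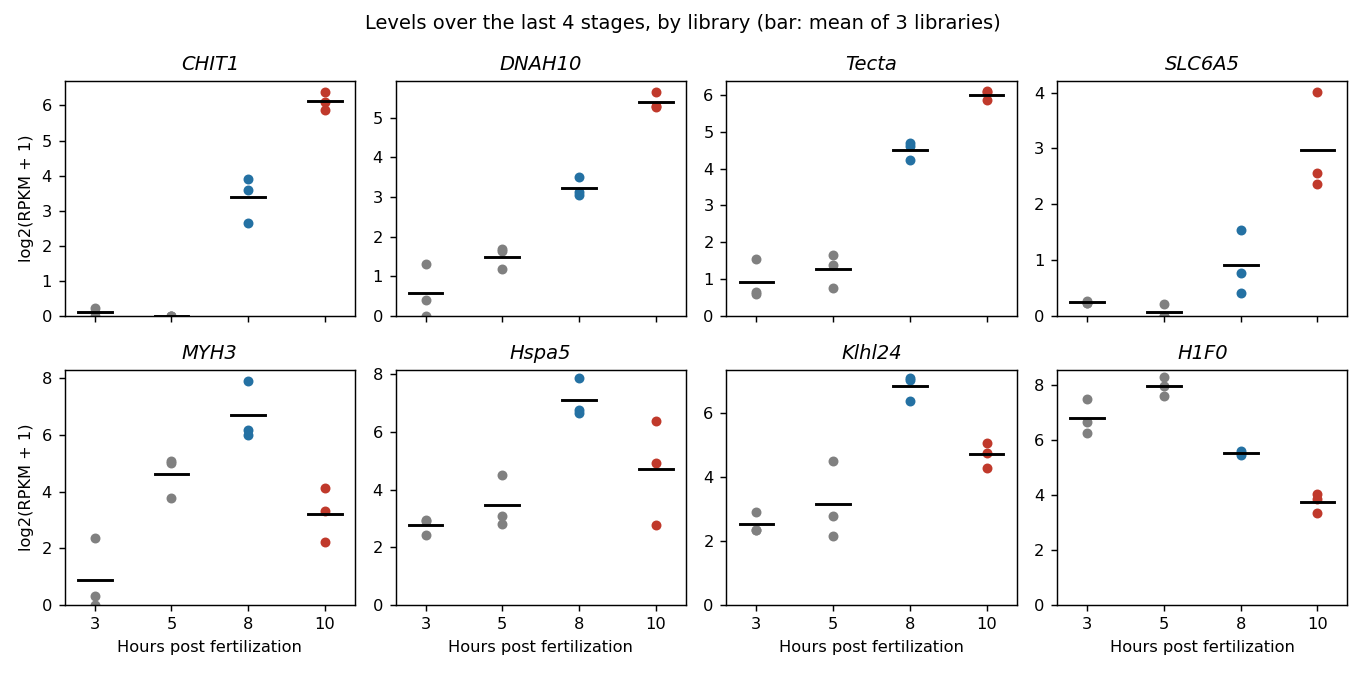
Level of 8 named unigenes on a log2(RPKM + 1) axis at 3, 5, 8 and 10 hpf; each point is 1 library and each bar the mean of 3. CHIT1, DNAH10, Tecta and SLC6A5 are highest at 10 hpf, MYH3, Hspa5 and Klhl24 are highest at 8 hpf, and H1F0 is highest at 5 hpf, among the 4 stages shown.

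A test of the bend at 8 hpf, the 10 minus 8 hpf change less the 8 minus 5 hpf change, called 2571 of 18704 unigenes (13.7%), 446 above 0 (2.38%) and 2125 below 0 (11.4%). The bend contains the change by which the named genes were chosen, so only their means are given. Klhl24 peaked at 8 hpf, with means of 10.3 RPKM at 5 hpf, 116 RPKM at 8 hpf and 25.7 RPKM at 10 hpf. Hspa5 averaged 11.7, 147 and 39.5 RPKM over the same stages, MYH3 averaged 25.6, 124 and 9.62 RPKM, and DNAH3 averaged 5.43, 18.8 and 5.12 RPKM. CHIT1, DNAH10 and Slco4a1 also rose between 5 and 8 hpf (limma adjusted p = 7.14e-15, 8.53e-06 and 0.00462). With lane as a term 1818 unigenes were called for the bend and in the same lane alone 1905. Both steps share the libraries of 8 hpf.

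In adults the risers parted. Chia remained high, with 170 and 65 RPKM in adult females and 148 and 20.9 RPKM in adult males, and SYN2 had 153 and 40.9 RPKM in females and 243 and 77.5 RPKM in males. Gapdh was far higher in adults, with 1293 and 922 RPKM in females and 4478 and 5361 RPKM in males. CHIT1, Slco4c1, Slco4a1 and SLC6A5 were at 1.40 RPKM or less in each of the 4 adult libraries. Among fallers, MYH3 had 11.6 and 3.79 RPKM in females and 0.191 and 0.304 RPKM in males, and KIF23 had 94.1 and 127 RPKM in females and 1.17 and 0.0638 RPKM in males. Unfertilized eggs averaged 2006 RPKM of Gapdh and 155 RPKM of KIF23. Gamete RNA in the adult libraries was not separated from that of other tissue. The adult libraries shared a lane with the 10 hpf libraries. Whether reads passed between libraries of that lane was not tested. With 2 libraries of each sex no test was made.

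The whole embryos labelled 12 hpf were set beside the staged libraries. Across 18704 unigenes, and among the stages before adulthood, each of the 4 libraries correlated most with the 5 hpf mean (r = 0.844 to 0.878), less with 8 hpf (r = 0.701 to 0.741) and with 10 hpf (r = 0.649 to 0.695), as a description. Their levels were a median of 7.68% of the 10 hpf mean among the risers and 241% among the fallers. Both values partly follow from how risers and fallers were called, since the call uses the 10 hpf levels. Over all unigenes tested the median level was 10.0 RPKM in these embryos and 6.72 RPKM at 10 hpf. CHIT1 and Slco4c1 were listed at 0 in all 4 libraries, and DNAH10 had 2.62 to 4.23 RPKM. H1f0 had 48.4 to 250 RPKM, against means of 477 RPKM at 5 hpf and 3.16 RPKM at 10 hpf. The other falling linker histone, H1F0, had 8.12 to 23.1 RPKM, against 254 RPKM at 5 hpf and 12.8 RPKM at 10 hpf. Cdc25a had 67.3 to 143 RPKM. These tables were scaled separately and library kits differed, so only levels are set side by side.

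Levels in vegetal and animal hemisphere libraries labelled 12 hpf (4 each) were compared for part of the genes. These libraries carry the same numbers as hemisphere libraries labelled 8-cell. Whether the hemispheres were separated at that earlier stage and then grown to 12 hpf was not tested. A difference is therefore not read as position in an intact embryo of 12 hpf. Vegetal hemispheres had more of 5157 unigenes and less of 2409 than animal ones, 48.2% of 15697 together. Of 228 risers tested there 42.5% were vegetal-higher and 14.5% animal-higher, and of 230 fallers 40.9% and 23.9%, against 32.9% and 15.3% of all unigenes tested. DNAH10 was higher in vegetal hemispheres (difference 2.53, limma adjusted p = 0.000128), as was PRSS2 (2.49, limma adjusted p = 4.43e-05). P4HB (6.29, limma adjusted p = 1.73e-12) and Myh4 (4.30, limma adjusted p = 6.01e-09) were vegetal-higher fallers. Grhl2 was higher in animal hemispheres (-2.47, limma adjusted p = 1.4e-05), as was Ass1 (-4.62, limma adjusted p = 0.000284), though vegetal library 3 held 98.0 RPKM of Ass1, against at most 2.08 RPKM in the other 3. Direction of the 12 hpf counts depends on scaling, since 3437 unigenes were vegetal-higher and 4105 lower after quantile normalization.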

How the data were processed

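Per the labels' protocols, total RNA was extracted with TRIzol and made into TruSeq libraries, strand-specific for the staged set only. The authors' deposited tables hold RPKM per unigene of 19277 assembled unigenes (10122 with a symbol), scaled by the authors. HISAT2 is named in the submitters' processing notes; its version and the genome build are not given in the sources used here. The authors' deposited sequencing table gives counts of reads per library, the percent of reads aligned, a fraction headed %SS, which the table does not spell out, and run and lane. Counts per unigene were not used, so counting error per unigene is not given. A further 146 columns headed by library names were not used; in a second staged sheet 11 of 43 columns differ from the first.

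Unigenes with 1 RPKM or more in 2 staged libraries (18704) or 4 hemisphere libraries (15697) were kept. Values were fitted as log2(RPKM + 1) with limma 3.58.1 in R 4.3.3 (lmFit, eBayes with trend), 1 mean per group, all libraries of a set sharing the spread (28 and 18 residual degrees of freedom), and Benjamini-Hochberg adjustment at 0.05. The fit was tested on simulated data. Hemisphere libraries of the same number deviated together from their group means in all 4 pairs at 12 hpf (r = 0.144 to 0.246), so a fit with that number as a block was also made. Staged libraries share no numbers between stages.

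Named are, among passing unigenes with a symbol whose 10 hpf and 8 hpf libraries do not overlap, the 15 largest changes in each direction and up to 4 of each of 35 gene lists (5 for factor and signalling lists) by p-value, plus 2 without symbol per direction; not every unigene so chosen is printed. Others are marked as chosen after their values were seen or are printed as members that did not pass or as a family's most abundant unigene. Lists are matched by symbol, and 83 unigenes are in more than 1. Members and lists were chosen with earlier results of these data known. Figures were drawn with matplotlib 3.10.9.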

Additional observations from a re-analysis of the deposited data

Results flagged for a closer look

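Among the 30 unigenes named for the size of their change, levels at 12 hpf were screened for a library far from the other 3 of its group. In all 60 groups reached 1 RPKM and 9 held such a library. Chance would flag about 1 in 20 groups if they were independent. The groups share libraries and are not independent, so whether 9 exceeds chance was not tested. In whole embryos, library 6 had 19.2 RPKM of Bche, against 0.845 to 1.71 RPKM in the others, and 18.6 RPKM of Eif4ebp2, against 3.15 to 4.76 RPKM. Library 3 had 1.20 RPKM of MYH3, listed at 0 in the other 3, and library 5 had 55.5 RPKM of Grhl2, against 45.1 to 45.8 RPKM. In animal hemispheres, library 5 stood out 3 times: SYN2 had 16.0 RPKM, against 0 to 0.318 RPKM in the others, Hspa5 had 3.07 RPKM, against 0.200 to 0.690 RPKM, and Glipr2 had 1.61 RPKM, against 0 to 0.213 RPKM. In vegetal hemispheres, library 5 had 2.76 RPKM of Myh1, against 0.356 to 0.549 RPKM, and library 3 had 98.0 RPKM of Ass1, against 0.0780 to 2.08 RPKM.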

How the results depend on the processing

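Of the 67 named unigenes none turned its direction under any setting tried, but many calls depend on the settings. The named unigenes were chosen so that the 10 hpf and 8 hpf libraries do not overlap. Leaving out a library, using 1 lane, or changing the pseudocount or filter therefore could not turn their direction. Counts over all unigenes are 802 (403 higher, 399 lower). With a pseudocount of 0.1 RPKM they were 134 (45 and 89), with 5 RPKM in 2 libraries 463 with 154 lower, after quantile normalization 715 were higher, and after median centring 247 were lower. Fitting only the 6 compared libraries gave 0 (0 and 0), where fewer libraries estimate the spread, and only 3 to 10 hpf gave 4 (4 and 0). Array weights gave 4548 (1450 and 3098). Leaving out 1 library gave 530 to 2311 in all, 309 to 628 higher and 155 to 1683 lower. Without library 21 of 8 hpf the counts were 2311, 628 and 1683. Without library 8 of 8 hpf 155 were lower, and without library 23 of 10 hpf 530 were called, of which 213 were lower. Settings chosen after seeing the data were the lane term (656 higher, 107 lower) and the same lane alone (845 higher). The cause was not tested. Of the 67 named unigenes 18 stayed past the threshold with a pseudocount of 0.1 RPKM, 35 with the lane term and 33 in the same lane. The bend at 8 hpf was called for 1144 unigenes with a pseudocount of 0.1 RPKM and 4826 with array weights, and for 1494 (without library 8) to 3804 (without library 21 of 8 hpf) when 1 library was left out. Hemisphere counts became 3437 vegetal-higher and 4105 animal-higher after quantile normalization. No paired analysis was possible for 10 hpf against 8 hpf because the stages share no library numbers. With the replicate block the 12 hpf hemispheres gave 8208 unigenes, 5591 vegetal-higher and 2617 animal-higher, against 7566. Depth per unigene is not in the RPKM values, so no counting error is given.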
